A study of Mus musculus with 4 samples.

Results

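The 43 genes described here are the serpins and the plasminogen activator genes of a mouse array data set: 40 genes whose platform symbol starts with Serpin, together with Plau, Plat and Plaur. They were chosen by symbol from 18193 genes that had a probe set with a single gene symbol. Each was represented by the probe set with the highest mean signal over all 4 arrays. Other serpins without a single-symbol probe set in the annotation used here were not analysed here.

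Female mice of the immunodeficient SCID/NOD strain, 6 to 8 weeks old, carried subcutaneous tumours of human 293 cells, a line from embryonic kidney. In the metastatic group the tumour cells were 293-VEGF-D, which overexpress the lymphatic growth factor VEGF-D, and in the non-metastatic group they were 293-Apex. When a tumour had reached between 1600 and 2500 mm3, which took 3 to 4 weeks, its draining axillary node was removed. A preparation pooled the nodes of between 1 and 5 mice. Cells from the digested nodes were cultured briefly in an endothelial growth medium and then selected for podoplanin, which lymphatic endothelium and fibroblastic reticular cells both carry. Each group had 2 preparations, called biological replicates in the labels, with 1 array each. Metastatic nodes were used only when visibly enlarged. The sorting label adds that tumour cells and leukocytes were removed before culture in the metastatic preparations and not in the non-metastatic ones, although the growth protocol describes the removal without separating the groups. The tumour line, the choice of enlarged nodes and, by that label, the depletion all go with the group and cannot be told apart here. In these bulk samples fewer cells of a type and less RNA per cell cannot be told apart either. The endothelial markers were mixed. Of 8 measured lymphatic endothelial markers 5, with the selection marker Pdpn counted, and of 10 blood endothelial markers 5, had mean signals above the median of all probe sets (5.95 on the log2 scale). Among them were Foxc2 (8.56), Nrp2 (8.04), Kdr (7.53) and Lyve1 (6.65, with 6.32 and 4.23 on the metastatic arrays). Endothelial markers under that median included the defining markers Prox1 (4.00), Pecam1 (4.94) and Cdh5 (5.87, with 6.76 on non-metastatic replicate 1). Of 9 fibroblastic reticular markers Lum alone (5.23) was under it, and Col1a2 (14.22), Pdgfrb (12.27) and Pdgfra (12.26) were brighter than the endothelial markers named here. Of 8 smooth muscle and pericyte markers Myh11 and Rgs5 were under it, and Acta2 stood at 14.20. The make-up of the preparations was not tested. Pdpn stood at 10.89, 10.83, 10.35 and 10.35 (metastatic replicates 1 and 2, then non-metastatic replicates 1 and 2).

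Serpins are a family of proteins that share a fold with an exposed reactive loop. Most of them act as suicide inhibitors: a protease cuts the loop and is trapped in a covalent complex. Secreted serpins control clotting, complement and fibrinolysis, while the clade B serpins lack a classical signal peptide and act mostly inside cells, where many guard against leaked proteases of granules and lysosomes. Plasminogen is turned into plasmin, which dissolves fibrin and degrades matrix, by urokinase (Plau) and tissue plasminogen activator (Plat). The receptor encoded by Plaur holds urokinase at the cell surface.

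The comparison asks whether these genes had different signals in cells from nodes draining metastatic and non-metastatic tumours. Among the 43 genes, 5 had a signal at least 1 log2 unit (2-fold) lower in the metastatic group, and all 5 were clade B serpins: Serpinb6b, Serpinb6c, Serpinb2, Serpinb9b and Serpinb1a. That is 11.6% of the members, where 0.704% of all genes were as much lower. None was at least 1 log2 unit higher, where 0.242% of all genes were. No member passed limma with Benjamini-Hochberg adjustment over all 45037 probe sets at 0.05, and neither did any other gene (0 called, 0% of probe sets and of genes; smallest adjusted p = 0.0863). At an unadjusted limma p under 0.05 there were 6 members, all lower (Serpinb6c, Serpinb6b, Serpinb9b, Serping1, Serpinb1a and Serpini1), which is 13.95% of the 43 against 4.07% of all genes; for higher members the count was 0 against 2.63%. Both metastatic arrays lay under both non-metastatic arrays for 15 members (34.9%, against 17.3% of genes) and above them for 4 (9.30%, against 17.2%). Of these 15, 8 had mean signals under the median of all probe sets, with differences between -0.42 and -0.09. The median difference over the 43 genes was -0.066, against -0.00034 over all genes. Without metastatic replicate 2, 3 members were at least 1 log2 unit lower (6.98%, against 0.764% of genes) and 1 was at least as much higher (2.33%, against 0.621%). In that setting 24 members lay under the non-metastatic arrays (55.8%, against 40.8% of genes) and 12 above them (27.9%, against 36.7%). With 2 arrays a group, an exact two-sided permutation test of a single gene cannot give a p below 0.333.

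**Figure D1:**
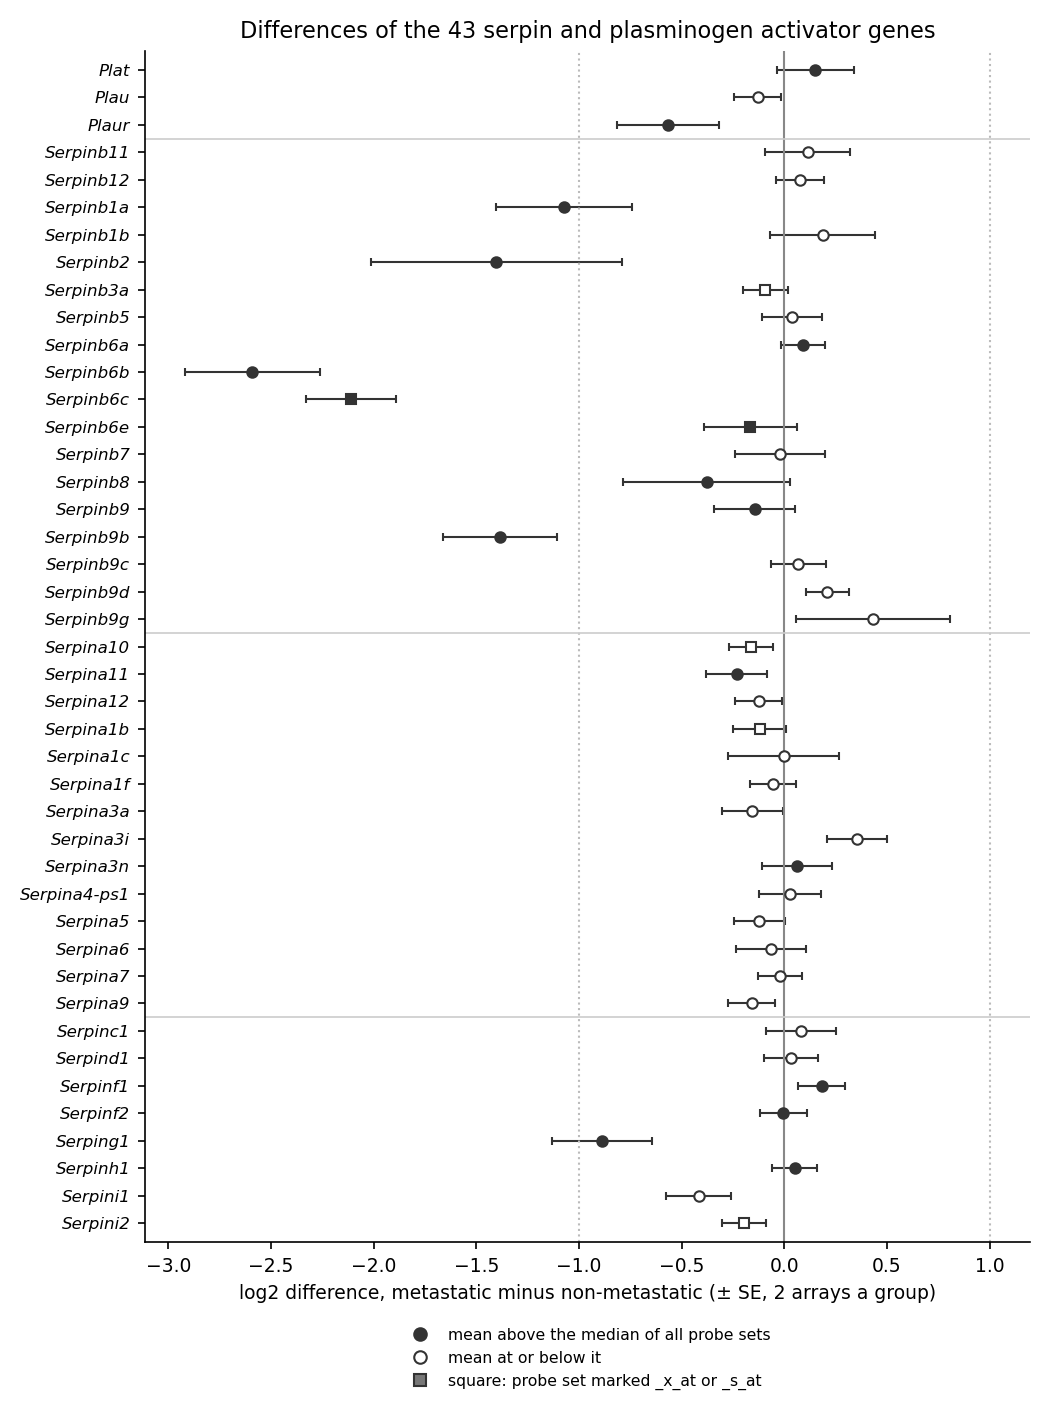
Log2 difference (metastatic minus non-metastatic, ± SE, 2 arrays a group) of each of the 43 genes, ordered as the activator genes, clade B, clade A and the other clades; filled symbols have a mean signal above the median of all probe sets, and squares are probe sets marked as able to bind several transcripts. The 5 genes left of the dotted line at -1 are all clade B serpins, and no gene lies right of the line at 1.

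The activators themselves had small differences. Plat had log2 signals of 10.20 and 9.89 on the metastatic arrays and 10.10 and 9.68 on the non-metastatic ones, a difference of 0.15 (SE 0.19). The groups overlapped, and the replicates of each group lay further apart than the group means. Plau was dim, with 5.19 and 5.33 against 5.43 and 5.35, all under the median of all probe sets, and differed by -0.13 (SE 0.12). Its other probe set, also dim, had the opposite sign at 0.31 (SE 0.15), so these arrays give no settled direction for urokinase. Plaur, the urokinase receptor, had 7.58 and 8.32 against 8.45 and 8.59, a difference of -0.57 (SE 0.25; limma adjusted p = 0.846). Its lowest value was on metastatic replicate 1, and metastatic replicate 2 stood just under the non-metastatic arrays. Without metastatic replicate 1 the difference of Plaur was -0.20.

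Among the measured serpins that act on this system, Serpinb2 (plasminogen activator inhibitor type 2, an inhibitor of urokinase) had 9.36 and 11.30 on the metastatic arrays against 11.44 and 12.03. Its difference was -1.40 (SE 0.61; limma adjusted p = 0.846), a 2.64-fold lower mean signal. The groups did not overlap, but the metastatic replicates differed from each other by 1.94 log2 units, the widest gap of any member, and metastatic replicate 2 was close to non-metastatic replicate 1. Without metastatic replicate 1 the difference was -0.43, and without metastatic replicate 2 it was -2.37. Like Plaur, Serpinb2 was therefore lowest on metastatic replicate 1. Serpini1 (neuroserpin, an inhibitor of tissue plasminogen activator) was dim, with 5.01 and 5.38 against 5.54 and 5.69, a difference of -0.42 (SE 0.16; limma adjusted p = 0.787). Every array was below that median. Its other probe sets differed by -0.13 and -0.11, and without metastatic replicate 1 the value was -0.23. Serpinf2 (alpha-2-antiplasmin, the main plasma inhibitor of plasmin) had 7.00 and 7.15 against 7.09 and 7.08, a difference of -0.006 (SE 0.11).

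Serping1 encodes C1 inhibitor, which blocks the first proteases of the classical complement pathway as well as plasma kallikrein and factor XIIa. It had 10.78 and 10.42 on the metastatic arrays and 11.81 and 11.17 on the non-metastatic ones. Both metastatic values lay under both others, and the difference was -0.89 (SE 0.24; limma adjusted p = 0.615), a 1.85-fold lower mean signal. Without non-metastatic replicate 1, which had the highest value, it was -0.57. Serpinc1 (antithrombin), Serpind1 (heparin cofactor II), Serpina5 (protein C inhibitor) and Serpina10 (the protein Z-dependent inhibitor) differed by 0.08, 0.03, -0.12 and -0.16. These 4 serpins of the clotting system had mean signals under the median of all probe sets, so a small difference does not show that expression was alike.

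Clade B had 18 measured genes, 10 with a negative and 8 with a positive difference, from -2.59 to 0.43. Mouse clade B serpins lie in a group on chromosome 1 and a larger one on chromosome 13, where repeated duplication has given families of close paralogues. Serpinb6b had 7.45 and 6.40 on the metastatic arrays against 9.53 and 9.50 on the non-metastatic ones, a difference of -2.59 (SE 0.33; limma adjusted p = 0.228). The non-metastatic replicates nearly coincided, and both metastatic arrays were at least 2 log2 units under them. Serpinb6c had 8.02 and 7.37 against 9.87 and 9.74, a difference of -2.11 (SE 0.22; limma adjusted p = 0.169), a 4.32-fold lower mean signal. Here too both metastatic arrays were far below both others, with metastatic replicate 2 the lower one. The probe set of Serpinb6c carries the suffix _s_at, by which the array's naming marks a set whose probes can bind several transcripts. The values of Serpinb6b and Serpinb6c may therefore share signal, and they count as separate evidence only as far as the probes tell the paralogues apart, which was not tested. Serpinb6a, the mouse counterpart of human SERPINB6, an inhibitor of cathepsin G, had 13.67 and 13.66 against 13.53 and 13.61, a difference of 0.09 (SE 0.11), and both metastatic arrays lay above both others. Serpinb6e, on a set marked _x_at, had 8.12 and 8.72 against 8.42 and 8.74, with overlapping groups and a difference of -0.16 (SE 0.23).

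The Serpinb9 family showed the same kind of split. Serpinb9, the mouse counterpart of the granzyme B inhibitor that protects cytotoxic lymphocytes from their own granules, had 9.24 and 8.71 against 9.03 and 9.21, a difference of -0.14 (SE 0.20). Its groups overlapped, and the sign turned to 0.12 without metastatic replicate 2. Its neighbour Serpinb9b had 10.24 and 9.45 against 11.05 and 11.41, a difference of -1.39 (SE 0.28; limma adjusted p = 0.401), a 2.61-fold lower mean signal. Both metastatic arrays lay under both non-metastatic ones, and the difference was -0.99 without metastatic replicate 2. Serpinb1a, an inhibitor of neutrophil elastase and cathepsin G, had 8.71 and 7.69 against 9.43 and 9.12, a difference of -1.07 (SE 0.33; limma adjusted p = 0.674). Its groups did not overlap. Its value was -0.57 without metastatic replicate 2, and its other probe set, dim and marked _s_at, differed by -0.22. Serpinb1b, Serpinb9c, Serpinb9d and Serpinb9g were dim, with differences of 0.19, 0.07, 0.21 and 0.43.

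In gene order on chromosome 13 (RefSeq annotation of GRCm38.p6, used for order alone), 17 clade B genes are listed, a pseudogene among them, and 11 were measured. Genes of other families that may lie between them were left out of this order. Serpinb6b, Serpinb9 and Serpinb9b are neighbours in that order, and Serpinb6e, Serpinb6c and Serpinb6a are neighbours near the other end. In each trio a gene with a small difference lay beside one or more with a difference below -1. Serpinb1a, outside the trios, had -1.07. In the whole cluster the 7 measured genes with a difference above -1 lay between -0.16 and 0.43. The differences between paralogues were not tested.

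**Figure D2:**
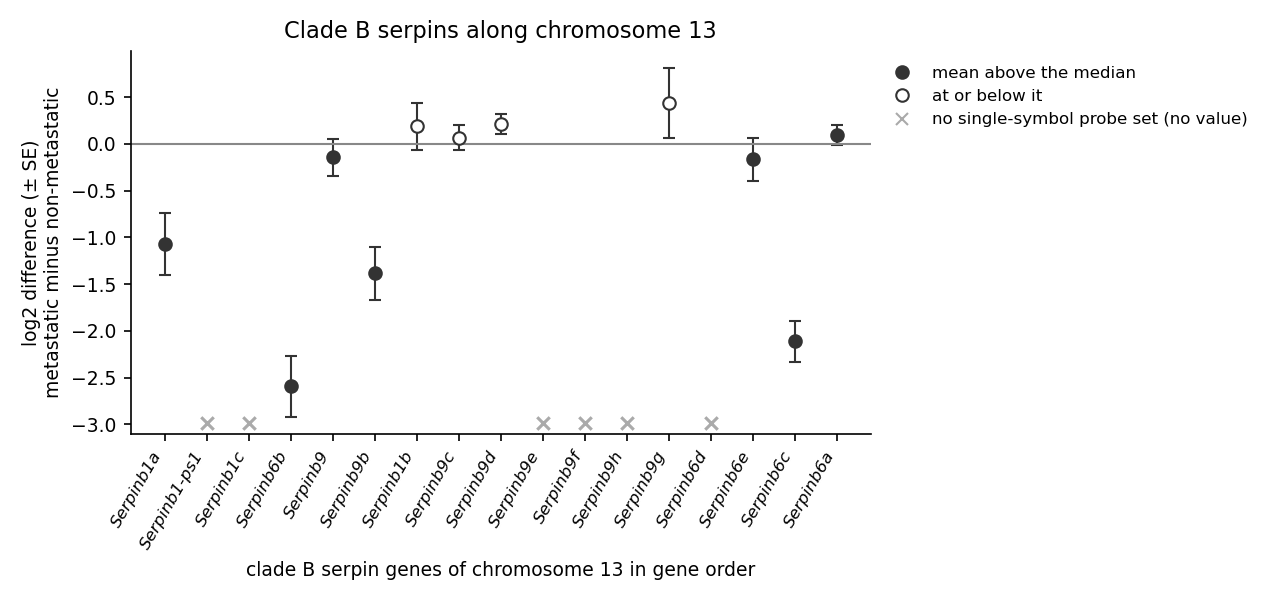
Log2 difference (metastatic minus non-metastatic, ± SE, 2 arrays a group) of clade B serpin genes in their order along chromosome 13; filled symbols have a mean signal above the median of all probe sets, open ones do not, and crosses at the bottom are genes without a value. Serpinb1a, Serpinb6b, Serpinb9b and Serpinb6c lie below -1, and the other 7 measured genes lie between -0.16 and 0.43.

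The stretches before the start sites of 4 of these genes are shown because they belong to the pair with the most negative differences (Serpinb6b and Serpinb6c) and to neighbours with differences of -0.14 and -1.39 (Serpinb9 and Serpinb9b). Each holds the 250 bases upstream of the annotated start on the gene's own strand, 5′ to 3′, from RefSeq's GRCm38.p6 annotation: chr13:32965011-32965260 on the plus strand for Serpinb6b, chr13:33905192-33905441 on the minus strand for Serpinb6c, chr13:33004291-33004540 on the plus strand for Serpinb9 and chr13:33027164-33027413 on the plus strand for Serpinb9b. Capitals mark the matches found to the motifs searched on both strands.
Serpinb6b: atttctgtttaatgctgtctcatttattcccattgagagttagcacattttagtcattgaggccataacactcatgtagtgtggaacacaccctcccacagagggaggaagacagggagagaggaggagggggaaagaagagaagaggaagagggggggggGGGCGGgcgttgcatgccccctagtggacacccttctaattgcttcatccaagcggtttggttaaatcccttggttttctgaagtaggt
Serpinb6c: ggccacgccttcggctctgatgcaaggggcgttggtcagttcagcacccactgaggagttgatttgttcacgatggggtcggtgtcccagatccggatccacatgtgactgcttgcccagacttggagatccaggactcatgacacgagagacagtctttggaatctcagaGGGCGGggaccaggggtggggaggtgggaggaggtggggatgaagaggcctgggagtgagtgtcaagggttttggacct
Serpinb9: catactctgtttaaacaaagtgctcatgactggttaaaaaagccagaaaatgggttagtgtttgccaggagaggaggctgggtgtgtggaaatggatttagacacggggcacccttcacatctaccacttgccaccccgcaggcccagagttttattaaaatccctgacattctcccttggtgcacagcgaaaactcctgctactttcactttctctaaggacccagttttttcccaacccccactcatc
Serpinb9b: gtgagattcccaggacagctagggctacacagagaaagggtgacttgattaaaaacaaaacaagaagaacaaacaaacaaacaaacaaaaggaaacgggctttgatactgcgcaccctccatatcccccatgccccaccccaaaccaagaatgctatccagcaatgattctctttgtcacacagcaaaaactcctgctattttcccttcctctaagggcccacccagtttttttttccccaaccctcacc
The motifs were the TATA box (TATAAA), the CCAAT box (CCAAT), the GC box (GGGCGG), the AP-1 site (TGANTCA), the E box (CACGTG) and the STAT site (TTCNNNGAA), and no match overlapped another motif. Serpinb6b and Serpinb6c each held 1 match, a GC box whose first letter lay 89 and 79 bases before the start. Serpinb9 and Serpinb9b held none. Over 32851 such windows the shares holding a match were 12.4% for the TATA box, 33.8% for the CCAAT box, 32.7% for the GC box, 6.75% for AP-1, 6.02% for the E box and 7.02% for STAT. In a global alignment the windows of Serpinb9 and Serpinb9b were identical at 68.0% of the columns without gaps, against 59.5% for Serpinb6b and Serpinb6c and 46.8% to 52.2% for the other 4 pairs. A window was found for 35 of the 43 members.

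The chromosome 1 group had 7 measured clade B serpins, among them Serpinb2, described above with a difference of -1.40. Several of the others are known mostly from epithelia. Serpinb5 (maspin), Serpinb7 (megsin), Serpinb3a, Serpinb11 and Serpinb12 were all dim, with differences between -0.09 and 0.11, none of them past an unadjusted p of 0.05. Serpinb8, an inhibitor of furin, had 9.53 and 8.20 against 9.23 and 9.26, with overlapping groups, a difference of -0.38 (SE 0.41) and a gap of 1.32 between the metastatic replicates.

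Clade A, which holds the plasma serpins made chiefly by the liver, had 14 measured genes: 11 with a negative and 3 with a positive difference, between -0.23 (Serpina11) and 0.35 (Serpina3i). For 12 of them the mean signal was under the median of all probe sets, among them the alpha-1-antitrypsin genes Serpina1b and Serpina1c, the corticosteroid carrier Serpina6, the thyroxine carrier Serpina7 and the adipokine Serpina12 (vaspin). Serpina3n, which belongs to the antichymotrypsin family and is induced in inflammation, was bright, with 10.36 and 10.21 against 10.44 and 10.01, a difference of 0.06 (SE 0.17). Its groups overlapped.

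Some serpins are known for work outside protease inhibition. Serpinf1 (pigment epithelium-derived factor, a secreted protein that restrains vessel growth) had 13.70 and 13.78 against 13.61 and 13.50, a difference of 0.18 (SE 0.11; limma adjusted p = 0.932). Both metastatic arrays lay above both others, and its second probe set had 0.30 (SE 0.11; limma adjusted p = 0.765). Serpinh1 (HSP47, the collagen chaperone of the endoplasmic reticulum) had 13.45 and 13.50 against 13.39 and 13.46, a difference of 0.05 (SE 0.11). The groups overlapped, and its other probe set had the opposite sign at -0.03 (SE 0.12).

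**Figure D3:**
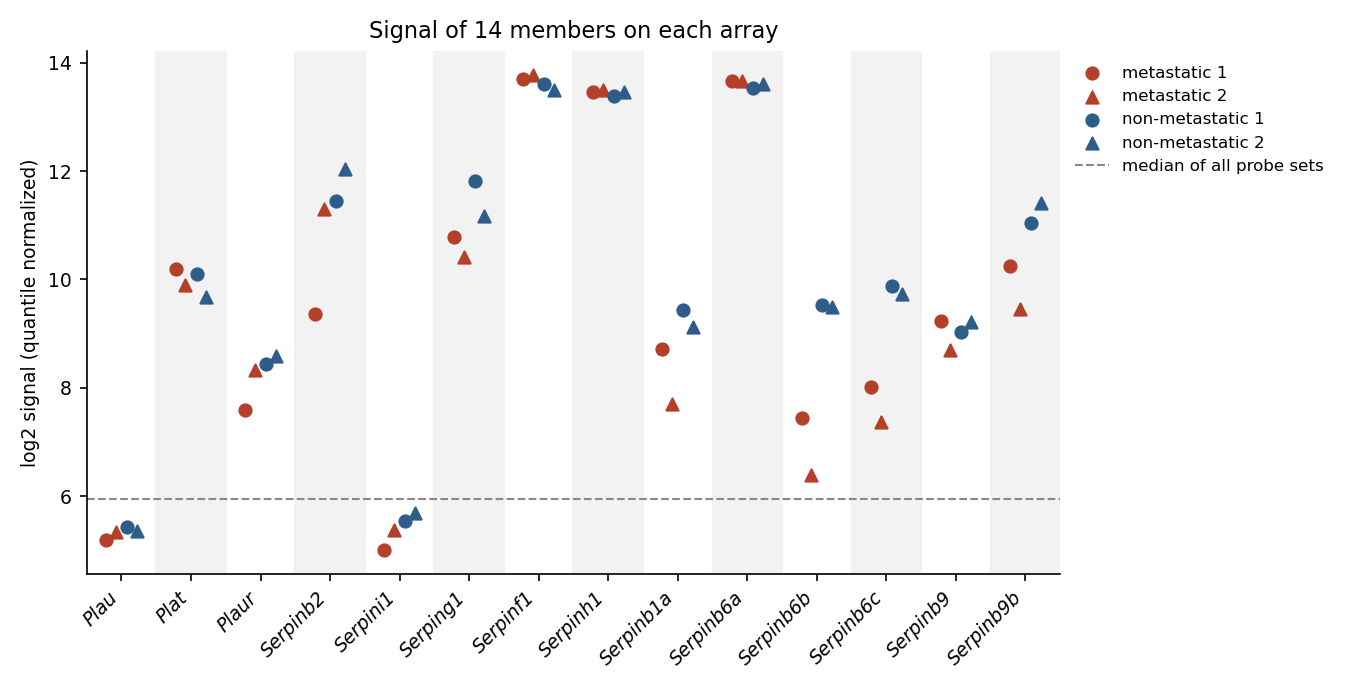
Log2 signal of 14 members on each array; red symbols are the metastatic and blue symbols the non-metastatic preparations, with circles for replicate 1 and triangles for replicate 2, and the dashed line is the median of all probe sets (5.95). Serpinb6b and Serpinb6c show both red symbols far below both blue ones, while Serpinb2 and Plaur are set apart mainly by metastatic replicate 1.

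Of the 43 genes, 14 had several probe sets, 6 were represented by a set marked _x_at or _s_at, and Serpinb6c was the one of these 6 with a difference of at least 1 log2 unit. Of the 5 genes at least 1 log2 unit lower, Serpinb1a alone had another probe set. Signs differed between the sets of Plau, Serpinh1, Serpinb5 and Serpina4-ps1, all within values of small size.

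**Figure D4:**
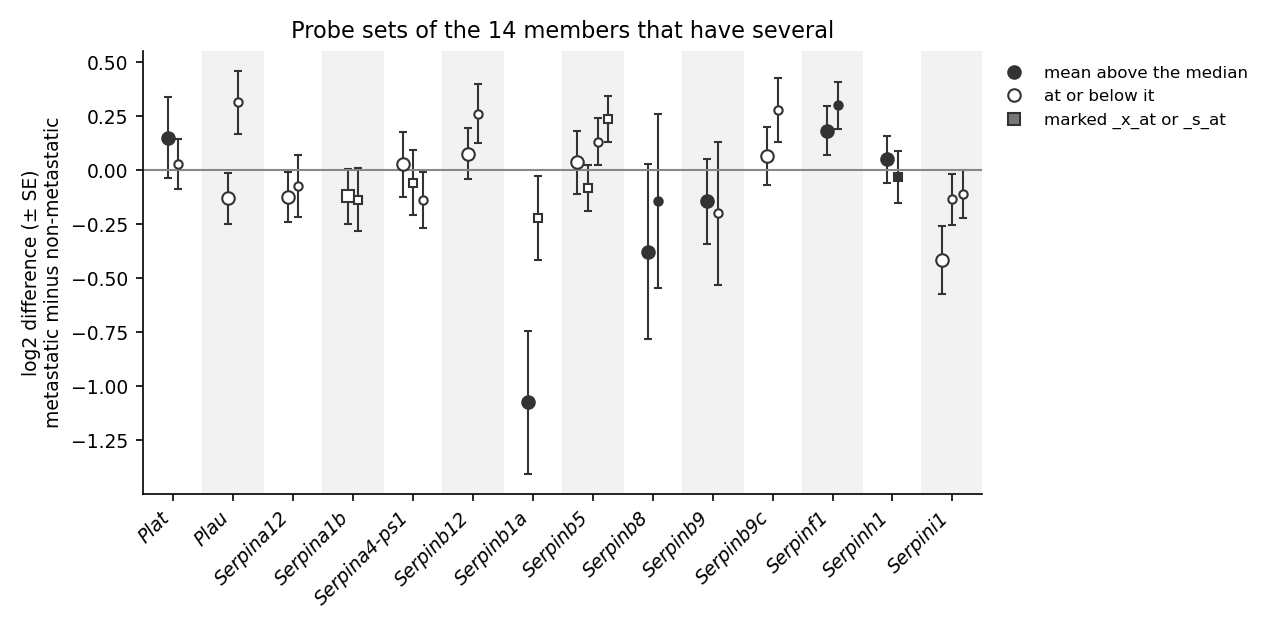
Log2 difference (metastatic minus non-metastatic, ± SE, 2 arrays a group) of each probe set of the 14 genes with several, the brightest set first and drawn larger; filled symbols have a mean above the median of all probe sets, and squares are marked _x_at or _s_at. The sets of Serpinb1a stand at -1.07 and -0.22, and those of Plau lie on both sides of 0.

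The metastatic replicates differed more from each other than the non-metastatic ones in these genes. The median gap between replicates was 0.26 in the metastatic and 0.14 in the non-metastatic group, and 12 members against 4 had a gap of at least 0.5. Over all probe sets the median replicate SD was 0.12 and 0.08. An SD of 2 arrays is their gap divided by the square root of 2, so it is smaller than the gap and not on the same scale. The gaps of the 5 lower genes ran in both directions: Serpinb6b (1.05), Serpinb1a (1.02), Serpinb9b (0.79) and Serpinb6c (0.64) were higher on metastatic replicate 1, and Serpinb2 (-1.94) was higher on replicate 2. Without metastatic replicate 1, the difference was -3.11 for Serpinb6b and -2.43 for Serpinb6c. Leaving out one of the remaining arrays instead, Serpinb6b ranged from -2.07 to -2.61 and Serpinb6c from -1.79 to -2.18. In such a fit the group's remaining array is taken to have the spread of the other pair.

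**Figure D5:**
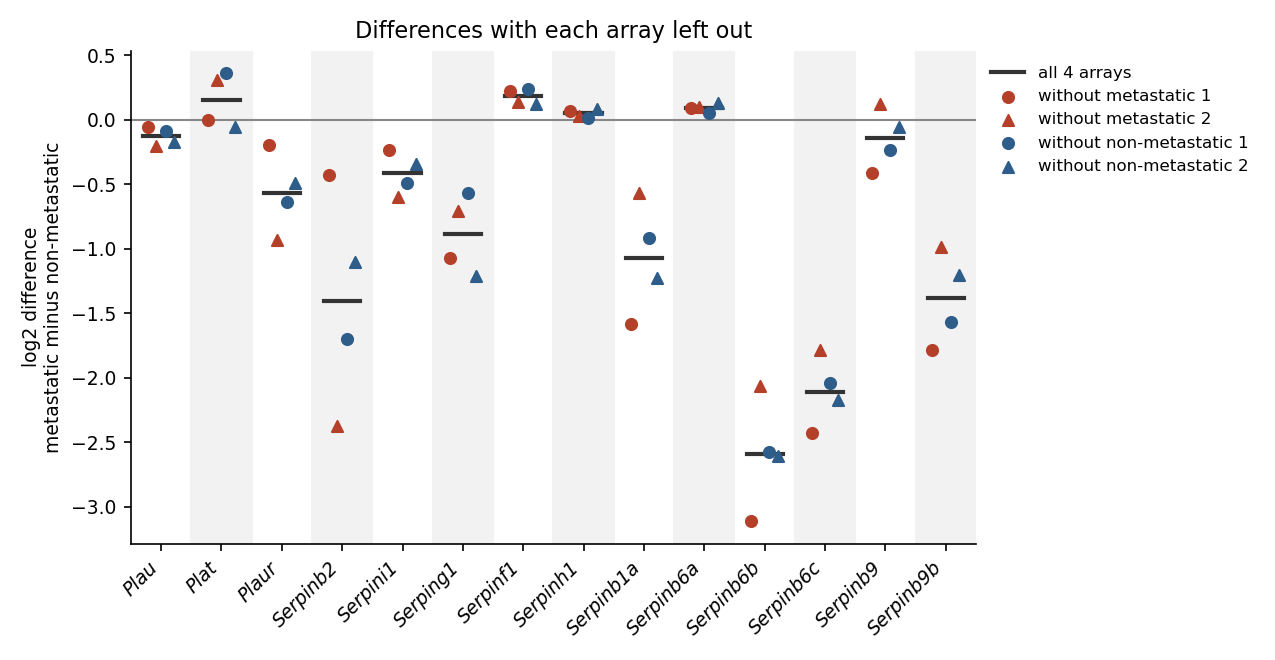
Log2 difference (metastatic minus non-metastatic) of 14 members with all 4 arrays (bars) and with each array left out in turn (symbols, coloured by the group of the omitted array). Serpinb6b and Serpinb6c stay below -1.7 throughout, whereas Serpinb2 runs from -2.37 to -0.43.

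The 3 lists of related genes were read in the same fit, and 0 of their members passed over all probe sets. In the wider plasminogen system 24 genes were measured, 11 with a negative and 13 with a positive difference, and the median was 0.01. At an unadjusted p under 0.05 there was 1 lower and 1 higher gene, 4.17% each way, where 4.07% of all genes were lower and 2.63% higher. S100a10, the annexin A2 partner that binds plasminogen at the cell surface, had 13.53 and 13.27 against 13.82 and 13.72, a difference of -0.37 (SE 0.13; limma adjusted p = 0.766). The lipoprotein receptor Vldlr, which takes up protease-serpin complexes, had 9.82 and 9.68 against 8.52 and 7.74, a difference of 1.62 (SE 0.26; limma adjusted p = 0.329), on a set marked _x_at. Plasminogen itself (Plg) was dim, with a difference of -0.006, and its partner Anxa2 differed by -0.16.

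Among 19 clotting genes, 12 had a negative and 7 a positive difference, with a median of -0.05. The 4 genes at an unadjusted limma p under 0.05 (21.1% of the list, against 4.07% of all genes) were all lower. Thbd (thrombomodulin) had 9.59 and 9.55 against 10.34 and 10.35, a difference of -0.77 (SE 0.11; adjusted p = 0.250). Procr, the endothelial protein C receptor (on a set marked _s_at), had 8.63 and 8.34 against 9.30 and 8.95, a difference of -0.63 (SE 0.17; adjusted p = 0.606). Tfpi2, a Kunitz inhibitor that also acts on plasmin, had 10.29 and 10.41 against 11.23 and 10.90, a difference of -0.71 (SE 0.15; adjusted p = 0.426). In each of these 3 both metastatic arrays lay under both others. The whole list had 9 such genes (47.4%, against 17.3% of all genes). For 2 genes both metastatic arrays lay above both others (10.5%, against 17.2%). The anticoagulant genes of this list did not all have negative differences of this size: Pros1 (protein S) had 10.45 and 10.34 against 10.23 and 9.94, a difference of 0.31 (SE 0.14), and Tfpi and Proc (protein C) differed by -0.05 and -0.07. F13a1, the fibrin cross-linking factor, was dim and differed by -0.55 (SE 0.13). F3, the tissue factor that starts clotting, had 10.75 and 10.71 against 10.54 and 10.09, a difference of 0.41 (SE 0.17).

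Among 22 proteases that serpins can block outside clotting, 12 had a negative and 10 a positive difference. Klk8, a kallikrein-family protease, had 8.56 and 8.32 against 10.23 and 9.52, a difference of -1.43 (SE 0.24; limma adjusted p = 0.356). The secreted protease Htra1 had a mean of 12.02 ± 0.18 against 11.22 ± 0.30 (SD, n = 2 each), a difference of 0.80 (SE 0.18; adjusted p = 0.485). Masp1, a complement protease that C1 inhibitor can block, had 8.75 and 8.85 against 9.11 and 9.65, a difference of -0.58 (SE 0.19; adjusted p = 0.717), on a set marked _s_at. For these 3 genes the groups did not overlap. In the whole list both metastatic arrays lay under both others for 3 genes (13.6%, against 17.3% of all genes) and above them for 7 (31.8%, against 17.2%). Besides Htra1, those above were Prtn3, Ctsb, Ctsl, Ctsh, Gzmb and Mcpt4. Prtn3 (proteinase 3 of neutrophils) had 6.25 and 6.04 against 5.86 and 5.87, a difference of 0.28 (SE 0.12; adjusted p = 0.845). The lysosomal cathepsins Ctsb, Ctsh and Ctsl were bright and differed by 0.25, 0.19 and 0.07. Elane, Ctsg, Gzma and Gzmb, granule proteases of leukocytes, were dim.

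Markers of the cell types that such a preparation could hold are given beside the lower serpins; counts of markers with the groups apart compare with 17.3% of all genes lower and 17.2% higher. Of 6 measured leukocyte markers 4 had a negative difference and in none were the groups apart, with a summed linear signal of 358 and 389 on the metastatic and 391 and 407 on the non-metastatic arrays. Ptprc, which defines leukocytes, was dim, with 4.28 and 4.01 against 4.13 and 4.08. Of 10 macrophage and myeloid markers 8 were negative, 3 apart and lower and 1 apart and higher, and the sums were 1462 and 1198 against 2026 and 1775. Csf1r had 9.61 and 9.26 against 9.88 and 10.07 and Lyz2 6.06 and 6.16 against 8.29 and 6.86, while Adgre1, Tyrobp, C1qa, C1qb and Itgam were under the median of all probe sets. Of 10 epithelial markers 9 were negative, 4 with the groups apart, and the sums were 1055 and 1086 against 3067 and 3931. Most of that gap came from Scel (8.71 and 8.72 against 11.10 and 11.51) and Perp (5.75 and 5.49 against 8.00 and 8.52). Epcam and Krt8 differed by -0.06 and -0.04, and Cdh1, Krt14, Krt18, Dsp and Sfn were dim. Of 8 smooth muscle and pericyte markers 7 were negative, 6 with the groups apart, and the sums were 17620 and 28583 against 35777 and 33746. Actg2 had 7.04 and 6.93 against 8.84 and 8.85, while Des and Rgs5 differed by -0.15 and 0.03. Of 7 mesothelial markers 5 were negative, 2 apart and lower and 1 apart and higher, and the sums were 570 and 1119 against 744 and 1091. Of 5 mast cell markers 3 were negative, 2 apart and lower and 1 apart and higher, and 4 were dim. Of 8 lymphatic endothelial markers 5 were negative, 2 apart and lower and 3 apart and higher, and the sums were 2653 and 2818 against 2398 and 2432. Most of each sum came from the selection marker Pdpn, which is also on the fibroblastic reticular list. Pdpn had 10.89 and 10.83 against 10.35 and 10.35, and without it the metastatic sums were the lower ones. Lyve1, which binds hyaluronan and also occurs on some macrophages, had 6.32 and 4.23 against 8.26 and 7.80, a difference of -2.76 (SE 0.64; adjusted p = 0.498). Of 10 blood endothelial markers 5 were negative, 2 apart and lower and 1 apart and higher, and the sums were 911 and 908 against 1366 and 1158. Most of that gap came from Emcn, and without Emcn the sums of the groups overlapped. Emcn (endomucin) had 6.50 and 5.66 against 8.77 and 8.45, a difference of -2.53 (SE 0.29; adjusted p = 0.185). Of 9 fibroblastic reticular markers 5 were negative, 2 apart and lower and 1 apart and higher, and the sums were 57421 and 59047 against 58866 and 61544. Among them Cxcl13, a chemokine for B cells, had 9.84 and 7.58 against 10.48 and 10.83, a difference of -1.95 (SE 0.69; adjusted p = 0.756). The differences of Scel, Perp, Lyve1, Emcn and Cxcl13 ran from -2.76 to -1.95, but these genes were named as the most negative of their lists. The median differences of those lists were -0.13 (epithelial), -0.11 (lymphatic endothelial), -0.03 (blood endothelial) and -0.02 (fibroblastic reticular). No marker can be read as 0 in log2 signals without detection calls. Their part in the lower serpin signals was not tested.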

How the data were processed

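The authors deposited a log2 signal for each probe set of 4 Affymetrix arrays (3.10 to 14.87), whose scale was read from the values. Detection calls were not used. For the summarising of probes and any normalization, the software is not given in the sources used here. The array medians differed by 0.116, over a limit of 0.1, so the arrays were quantile normalized. After 64 control probe sets were left out, 45037 were tested. A single gene symbol was available for 34945, several for 932 and none for 9160. limma 3.58.1 in R 4.3.3 (lmFit, eBayes) fitted metastatic minus non-metastatic with 2 residual and 3.71 prior degrees of freedom, with Benjamini-Hochberg adjustment across all of them. SDs and SEs rest on 2 arrays a group, whose number limits the precision. Dim means a mean signal at or below the median of all probe sets. The scripts were tested on simulated data.

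Given array by array were 14 members: 10 fixed by name (Plau, Plat, Plaur, Serping1, Serpinf1, Serpinh1, Serpinb6b, Serpinb6a, Serpinb9 and Serpinb2), those with a difference of at least 1 log2 unit and those at an unadjusted p under 0.05. Serpinb6e, Serpinb8, Serpinf2 and Serpina3n were added after their values were seen. Of the other lists, genes past either limit were given, and others were named after their values were seen. Members and lists were chosen with earlier results of these data known. Alternatives were unmarked probe sets, averaged probe sets, probe sets above the median alone, values as deposited, median centring, a trended and robust moderation, a block for the replicate number, and each array left out. Python 3.11.15 with matplotlib 3.10.9 drew the plots.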

Additional observations from a re-analysis of the deposited data

How the results depend on the processing

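Over 11 alternatives, 152 values of 14 members were recomputed. Of these 144 kept their sign and their side of the adjusted threshold, 4 turned sign and 4 passed it. Those that passed were Serpinb6b and Serpinb6c, with the replicate block and without metastatic replicate 1, the latter a fit with a single metastatic array. The sign turned for Plat (-0.058 without non-metastatic replicate 2 and -0.0027 without metastatic replicate 1, in a range up to 0.361), Plau (0.092 with its probe sets averaged) and Serpinb9 (0.122 without metastatic replicate 2, where leaving out metastatic replicate 1 gave -0.411). The labels state no pairing. The deviations of same-numbered arrays correlated at 0.248 over probe sets. With the replicate number as a block limma called 145 probe sets and 2 members (4.65%, against 0.511% of genes). These were Serpinb6b (limma adjusted p = 0.0130) and Serpinb6c (limma adjusted p = 0.00886). In that setting 1 member was higher at an unadjusted limma p under 0.05 (2.33%, against 3.79% of genes). Trend and robust moderation called 5 probe sets, none of them a member. It had 1 member higher at an unadjusted limma p under 0.05 (2.33%, against 2.62% of genes), as had averaged probe sets. With single arrays left out, called probe sets ranged from 0 to 67, called members from 0 to 2, members at an unadjusted p under 0.05 from 4 to 9 lower and from 0 to 3 higher, members with the groups apart from 18 to 24 lower (41.9% to 55.8%, against 28.6% to 40.8% of all genes) and from 8 to 12 higher (18.6% to 27.9%, against 28.5% to 38.8%), members at least 1 log2 unit lower from 3 to 6 and higher from 0 to 1, and the median difference from -0.094 to -0.040. In these fits 6.98% to 14% of members were at least 1 log2 unit lower (all genes 0.764% to 1.07%). As much higher were 0% to 2.33% (all genes 0.335% to 0.621%). The share of lower members at an unadjusted p under 0.05 exceeded that of all genes in each. For higher members it did so only without non-metastatic replicate 1. The 3 higher members, without metastatic replicate 2, were a smaller share than all genes. With 1 array in a group, no conclusion is drawn from such p counts. Averaged probe sets put 13 members apart and lower and 7 apart and higher. The shares of all genes were not computed in that setting. Among the 17 members on the brighter probe sets, 7 were apart and lower (41.2%, against 18.3% of the genes so chosen), 2 apart and higher (11.8%, against 18.3%), and the median was -0.23 (against 0.0018); fewer genes enter there. For the other changes the cause was not tested. Dim probe sets limit what can be read for 26 members.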

Other observations

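Probe sets with several gene symbols were outside the comparison, and 3 of them name serpins. The set shared by Serpinb9e, Serpinb9f, Serpinb9g and Serpinb9h, the chromosome 13 paralogues without values of their own apart from Serpinb9g, had 6.99 and 5.30 on the metastatic arrays against 5.29 and 5.64 on the non-metastatic ones, a difference of 0.68 (SE 0.52). Metastatic replicate 1 stood above the other arrays, as it did for the single-symbol set of Serpinb9g (5.09 and 3.89 against 3.96 and 4.15). The sets shared by the alpha-1-antitrypsin genes Serpina1a and Serpina1d, and by Serpina1b, Serpina1c and Serpina1e, were dim and differed by 0.18 (SE 0.11) and 0.03 (SE 0.11).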
